A study of Mus musculus with 13 samples.

Results

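Respiratory complex I (NADH:ubiquinone oxidoreductase) is described here at the level of its nuclear-encoded mRNAs in 3 muscles of mice with muscular dystrophy with myositis (mdm). The genes were taken by symbol: every mouse gene named Ndufa, Ndufb, Ndufc, Ndufs or Ndufv with a number, Ndufab1, and the numbered Ndufaf genes. Of 17833 genes with a symbol in the deposited tables, 48 matched. They comprise 36 complex I subunits, 8 assembly factors, Ndufa4 and Ndufa4l2, which share the name but are counted with complex IV, and the processed pseudogenes Ndufa11b and Ndufb4c. Of the 48 genes, 47 passed the filter on low counts, among 17069 genes in all, and Ndufa11b did not. The rule used no measured value.

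The 13 libraries came from whole muscles of mdm mice, which carry a spontaneous deletion in the titin gene on both chromosomes and were bred in the B6C3Fe a/a-Ttn mdm/J colony. The muscles were extensor digitorum longus (EDL, 5 libraries), psoas (5 libraries) and soleus (3 libraries), at ages from 29 to 42 days. All groups carry the mdm deletion, so each comparison below is between muscles of mutant mice, and wild-type muscle is not analysed here. The libraries also carry an unexplained condition code (T1, T3, T4, T5 or T6). The labels give male sex for the T4 libraries, female sex for the T5 libraries and no sex for the others. Sex and code therefore cannot be told apart. EDL replicate 1 (T1, 38 days) and psoas replicate 1 (T3, 29 days) differ in code and age, whereas replicates 2 to 5 of EDL and psoas share both.

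Complex I is the largest enzyme of the mitochondrial respiratory chain. It oxidises NADH, passes the electrons through a flavin and a row of iron-sulphur clusters to ubiquinone, and pumps protons across the inner membrane. Its matrix arm holds the core subunits that carry electrons, its membrane arm holds the proton pumps encoded by mitochondrial DNA, and the accessory subunits surround both arms. Assembly factors join the modules and are absent from the finished enzyme. Oxidative muscle fibres are rich in mitochondria and in this complex.

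Total counts ran from 9114176 to 48835209 per library, and the lowest count of any of the 36 subunits in any library was 94. By the RNA integrity numbers that the study reports, no mdm EDL library was below any mdm psoas library. The part of RNA integrity in the differences between these muscles was not tested. In bulk muscle, fewer fibres and less RNA per fibre cannot be told apart. Among marker lists, the 4 fast fibre markers summed to between 14754 and 63386 CPM (counts relative to the TMM-scaled library total) in EDL, between 1519 and 5305 in psoas and between 926 and 2080 in soleus, and the 8 slow fibre markers summed to between 20543 and 24661 in soleus against at most 3923 in either other muscle. In psoas against EDL, 9.06% of all 17069 genes tested were called in each direction at an adjusted p under 0.05 (edgeR). All 4 fast fibre markers were called lower in that comparison, and 0 of 8 slow fibre markers were called. All 6 mesothelial markers were called higher in psoas than in EDL. Their sums were between 15.2 and 65.6 CPM in psoas and between 2.48 and 7.04 in EDL, where 1 of the 6 was at 0 in every library. The 5 Schwann cell markers summed to between 143 and 1229 CPM in psoas and between 30.1 and 82.0 in EDL, and 4 were called higher in psoas. The 5 erythroid markers summed to between 2.92 and 389 CPM in psoas and between 5.79 and 33.4 in EDL, and 4 were called higher in psoas. The 6 myofibre markers summed to between 51459 and 100374 CPM in psoas and between 73250 and 146295 in EDL. Of these, 3 of 6 were called lower in psoas than in EDL (median log2 fold change -0.89), where 9.06% of all genes were. In soleus against EDL 1 of 6 was called lower (median -0.61), where 284 of all 17069 genes were. The 8 macrophage markers summed to between 271 and 1103 CPM in psoas and between 311 and 1043 in EDL, and 1 was called higher in psoas. The 8 adipocyte markers summed to between 4025 and 5606 CPM in soleus, between 1031 and 2549 in psoas and between 849 and 2117 in EDL. Of these 8 adipocyte markers, 1 was called higher in psoas than in EDL. In soleus against EDL 6 of the 8 were called higher, where 301 of all 17069 genes were. The 6 fibroblast markers (0 called) and the 5 endothelial markers (1 called higher) overlapped between psoas and EDL in their sums. The part of these cells in the complex I values was not tested.

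Before the levels, the promoter sequences are shown for the match that was most frequent among the subunits relative to all genes. RefSeq promoter windows of GRCm38.p6, from 250 bases before to 50 bases after the transcription start, were given for 40 of the 47 genes tested. The YY1-type sequence AAGATGGC, searched on both strands, occurred in 7 of 32 subunit promoters (21.9%) and in 1 of 7 assembly factor promoters (14.3%), against 862 of 27025 genes (3.19%). All 8 matches lay on the strand of the gene and after its start, between 11 and 39 bases downstream, a place where 280 of all genes (1.04%) held the match. The motif contains the letters ATG, and in 7 of the 8 genes that ATG was an annotated start codon in GENCODE, the exception being Ndufaf8. The 30 bases around each match are given 5′ to 3′ on the strand of the gene, with the match in capitals.
Ndufa3 (chr7:3617384-3617413, plus strand): ccgccaagaacAAGATGGCcgggagtaagt
Ndufa9 (chr6:126849097-126849126, minus strand): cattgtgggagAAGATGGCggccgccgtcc
Ndufb8 (chr19:44555393-44555422, minus strand): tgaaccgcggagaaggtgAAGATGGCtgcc
Ndufc1 (chr3:51408915-51408944, minus strand): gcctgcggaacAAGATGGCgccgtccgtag
Ndufs4 (chr13:114388045-114388074, minus strand): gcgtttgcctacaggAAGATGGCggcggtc
Ndufs6 (chr13:73328433-73328462, minus strand): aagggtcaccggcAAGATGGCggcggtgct
Ndufs7 (chr10:80249462-80249491, plus strand): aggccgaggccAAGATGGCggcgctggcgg
Ndufaf8 (chr11:120098933-120098962, plus strand): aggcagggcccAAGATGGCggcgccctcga

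The NRF1-type sequence GCATGCGC was found in 3 of 32 subunit promoters (Ndufa6, Ndufa8 and Ndufa11) and in 2 of 7 assembly factor promoters (Ndufaf4 and Ndufaf5), against 824 of 27025 genes (3.05%). The matches of 4 genes that are described by library below are shown in the same way, with 1 of the matches of each gene in capitals.
Ndufa6 (chr15:82354356-82354385, minus strand): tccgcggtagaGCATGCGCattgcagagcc
Ndufa8 (chr2:36049328-36049357, minus strand): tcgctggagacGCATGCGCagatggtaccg
Ndufaf4 (chr4:24897961-24897990, plus strand): cagatgtctgcGCATGCGCctgtgcggaag
Ndufaf5 (chr2:140170653-140170682, plus strand): gtcccgttggcGCATGCGCctaatagaaac
The ETS-type sequence CCGGAAG occurred in 4 subunit promoters (12.5%) and 2 assembly factor promoters (28.6%), against 9.93% of all genes. The ERR-type sequence AAGGTCA occurred in 3 subunit promoters (9.38%) and in 0 of 7 assembly factor promoters, against 5.38% of all genes. The Sp1-type sequence GGGCGG occurred in 15 subunit promoters (46.9%) and 6 assembly factor promoters (85.7%), against 38.2% of all genes. These are counts of letters and not of bound sites.

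Levels per length were compared as RPKM (CPM per kilobase of all annotated exons), averaged over the 3 muscles. The median subunit stood at 78.8 RPKM and the median assembly factor at 7.18, against 2.52 over 13924 protein-coding genes tested. Ndufaf1, which acts early in assembly of the membrane arm, was the highest assembly factor with 18.3 RPKM. Of the 36 subunits, 25 lay within 2-fold of their median. The highest was Ndufb9, a subunit of the distal membrane arm, with 295 RPKM, and the lowest was Ndufb2, of the same arm, with 2.77. The place of Ndufb9 depends on the annotated length: by the median length of the coding transcripts it was in place 2 after the core subunit Ndufs1. Ndufb2 was last of the 36 by either length, with 6.47 RPKM by the coding transcripts. That median was 651 bases for Ndufs1 and 2413 for Ndufb2, against 8086 and 5628 bases of all exons. The place of Ndufs1 and the value of Ndufb2 therefore rest on the annotation. Ndufb9 and Ndufb2 also overlap a protein-coding gene on the same strand (Gm49356 and Gm42420). The part of those genes in the counts was not tested. Ndufa4 stood at 237 RPKM, and its paralogue Ndufa4l2 at 0.598.

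The geometric mean level of the 36 subunits was highest in EDL, lowest in psoas and intermediate in soleus. In EDL it was 125, 145, 179, 136 and 207 CPM in replicates 1 to 5, with a mean of 158 ± 33.7 (SD, n = 5). In psoas it was 44.2, 58.5, 77.4, 97.5 and 112 CPM, with a mean of 77.9 ± 27.7 (SD, n = 5). In soleus it was 106, 92.6 and 134 CPM, with a mean of 111 ± 21.1 (SD, n = 3). The psoas and EDL libraries did not overlap, and soleus overlapped with both. Of 36 subunits, 35 were lower in psoas than in EDL in all 5 same-numbered pairs. For the 21 subunits with every psoas library below every EDL library, any pairing gives this result. The share of all genes lower in all 5 pairs was not counted. Within psoas the libraries of code T6, replicates 4 and 5, were the highest, and the library from the youngest mouse, replicate 1, was the lowest.

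**Figure D1:**
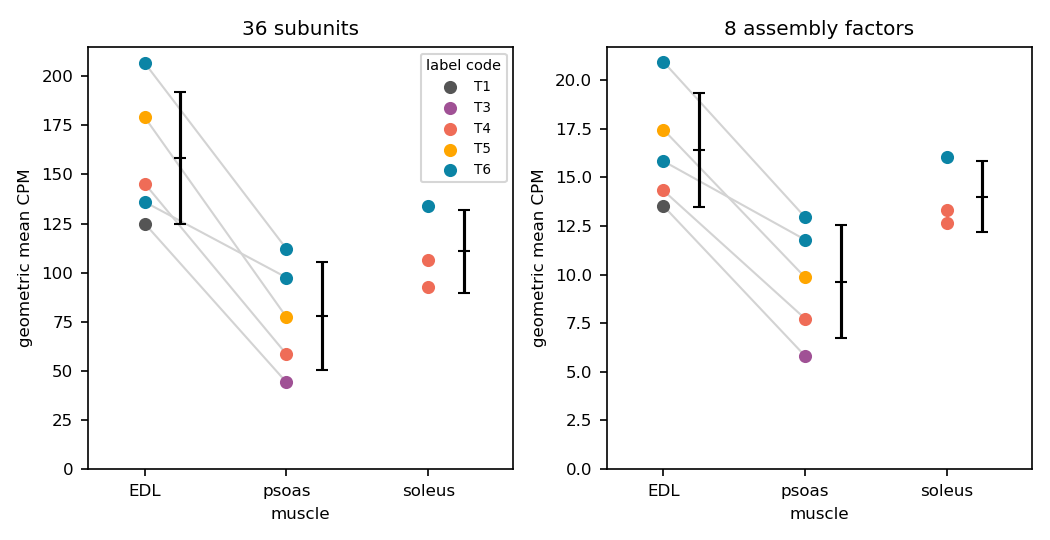
Geometric mean CPM of the 36 subunits (left) and the 8 assembly factors (right) in each library, coloured by label code, with grey lines between EDL and psoas libraries of the same replicate number and black bars for the mean ± SD of each muscle. All 5 lines fall from EDL to psoas in both panels, and the T6 libraries of psoas sit above the others.

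The assembly factors followed the same order at a lower level. Their geometric mean was 16.4 ± 2.94 CPM in EDL (SD, n = 5), 9.63 ± 2.91 in psoas (SD, n = 5) and 14.0 ± 1.82 in soleus (SD, n = 3). The highest psoas library, 12.9 CPM, lay below the lowest EDL library, 13.5 CPM. Subunits took 0.461% to 0.822% of all counts in EDL, 0.238% to 0.515% in psoas and 0.427% to 0.624% in soleus, shares that overlapped between all muscles.

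**Figure D2:**
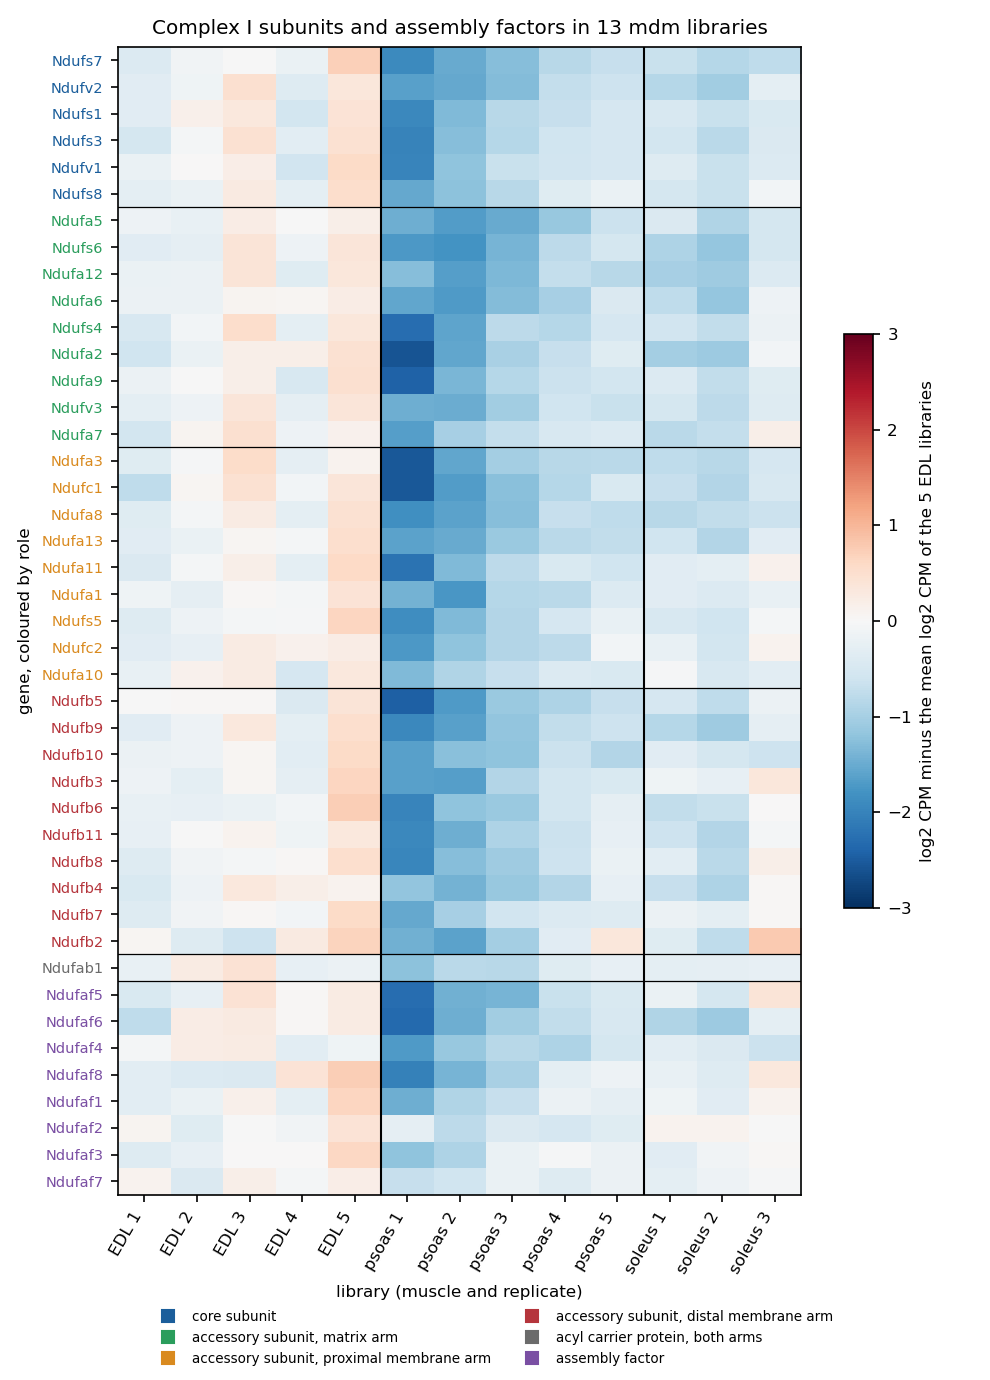
Each row is 1 of 35 subunits or 8 assembly factors and each column a library, and the colour is log2 CPM minus the mean log2 CPM of the 5 EDL libraries for that gene, with gene names coloured by role. Psoas replicates 1 to 3 are the darkest blue columns.

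In the comparison of psoas with EDL, nearly every complex I subunit was lower in psoas, by about the same factor. Of 36 subunits, 34 fell and 0 rose at an adjusted p under 0.05 (edgeR quasi-likelihood test, Benjamini-Hochberg adjustment), where 9.06% of all 17069 genes tested were called lower. The exceptions were Ndufs8 (log2 fold change -0.79, adjusted p = 0.0533) and Ndufb2 (-0.70, adjusted p = 0.236). Under the limits used in the study, an adjusted p under 0.01 and more than a 2-fold change, 10 of 36 subunits fell, against 2.5% of all genes. The replicate numbers were taken to pair the EDL and psoas libraries, although pair 1 differs in age and code. With the number as a block over all libraries, 36 subunits fell at an adjusted p under 0.05 and 23 under the limits of the study. That block also covered the soleus numbers, which were not taken as pairs. How many of all genes were called with it is not given here. The median log2 fold change of the subunits was -1.03 and their range was -1.28 to -0.68, beside a median of 0.02 over all genes. Without scaling between libraries other than the total count, the median of all genes moved to 0.54 and that of the subunits to -0.53, so that the subunits stood at -1.06 relative to all genes, and 10 subunits were called. That scaling also moved the calls over all genes from 1547 lower and 1546 higher to 516 lower and 5134 higher. In 21 of 36 subunits every psoas library lay below every EDL library, as in 6.36% of all genes. Without the 5 T6 libraries, an alternative added after the levels were seen, 27 subunits fell at an adjusted p under 0.05 and 0 passed the limits of the study. The number of subunits called at an adjusted p under 0.05 was 15 without psoas replicate 2, 16 without EDL replicate 3 and 17 without EDL replicate 5. The number past the limits of the study was 1 without EDL replicate 3 or 5 or psoas replicate 1, 2 or 3, 4 without soleus replicate 1 and 5 without EDL replicate 2, so the 10 subunits named below as past those limits depend on the full set of libraries.

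**Figure D3:**
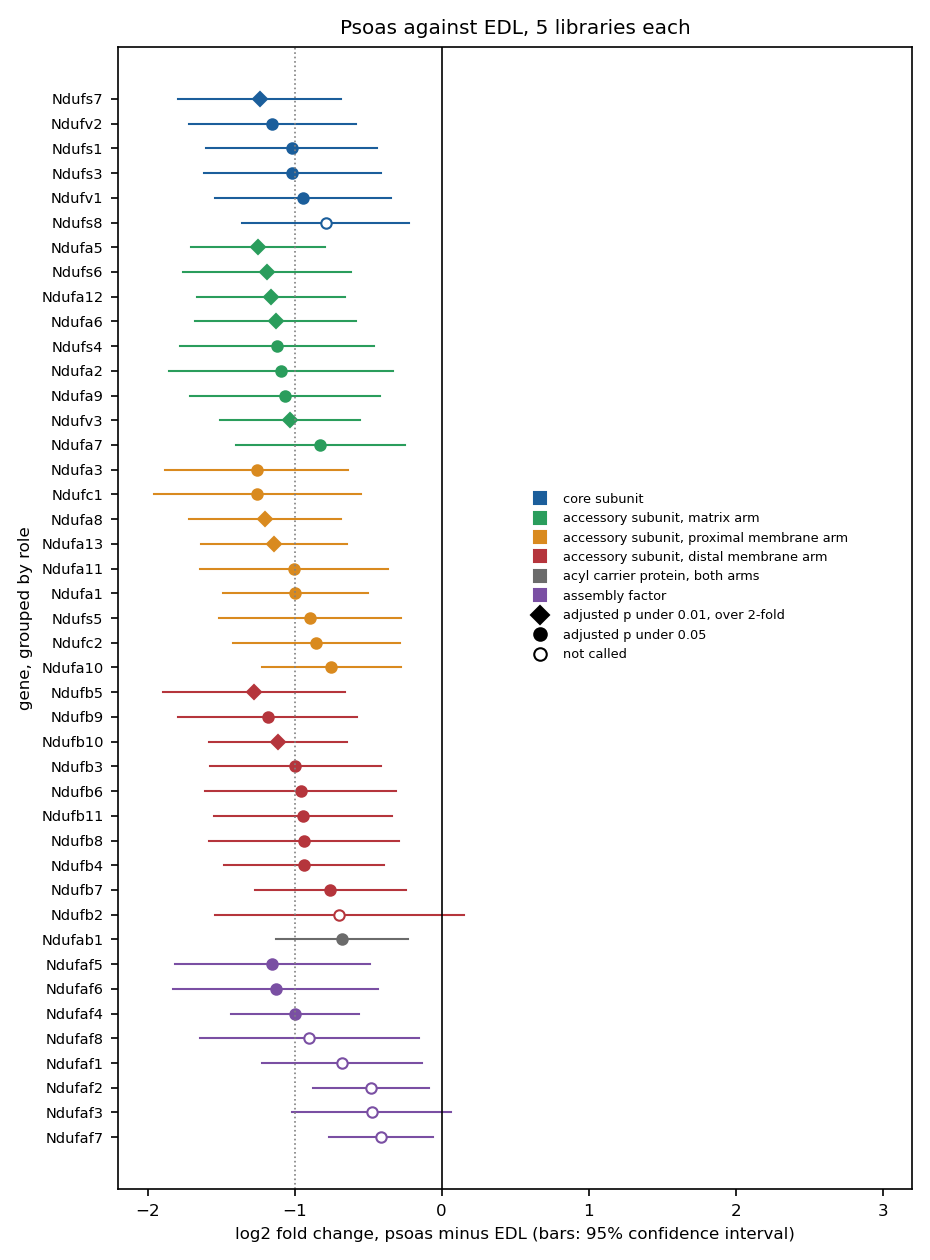
Log2 fold change of psoas minus EDL for 35 subunits and 8 assembly factors, ordered within their role, with bars for the 95% confidence interval, diamonds for genes past the limits of the study, filled circles for an adjusted p under 0.05 and open circles for genes not called. All genes drawn lie left of 0, and the dotted line marks a log2 fold change of -1.

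The 7 core subunits bind NADH, flavin and the iron-sulphur clusters in the matrix arm. Of these, 6 fell in psoas and 1 passed the limits of the study, with a median log2 fold change of -1.02. The latter was Ndufs7 (chr10:80249121-80256794 in GRCm38), which carries the last iron-sulphur cluster before ubiquinone. Its level was 113, 137, 148, 130 and 246 CPM in EDL replicates 1 to 5 and 39.5, 52.0, 61.1, 83.97 and 91.8 CPM in psoas. The groups did not overlap, and EDL replicate 5 stood well above the other EDL libraries. The log2 fold change was -1.24 ± 0.26 (SE, adjusted p = 0.00708, edgeR). Ndufs1, which holds iron-sulphur clusters at the distal end of the arm, had a log2 fold change of -1.02 ± 0.27 (SE, adjusted p = 0.02, edgeR).

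All 9 accessory subunits of the matrix arm fell in psoas, and 5 passed the limits of the study. Their median log2 fold change was -1.12. Ndufa5, which lies at the side of the matrix arm, had the smallest p of all members. Its level was 151, 143, 196, 167 and 188 CPM in EDL and 60.3, 52.5, 59.0, 75.8 and 108 CPM in psoas, without overlap. The log2 fold change was -1.25 ± 0.21 (SE, 95% confidence interval -1.70 to -0.79, adjusted p = 0.00264, edgeR), and the adjusted p stayed at 0.00855 or lower with any 1 library left out. Ndufs6, an accessory subunit with a zinc site, is one of the genes whose promoter is printed above. It had 71.0, 73.6, 117, 80.6 and 115 CPM in EDL and 27.1, 25.8, 34.0, 51.5 and 61.8 CPM in psoas, with a log2 fold change of -1.19 ± 0.27 (SE, adjusted p = 0.00956). Here the highest psoas library stood below the lowest EDL library.

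Ndufa12 and Ndufa6 are further subunits of the matrix arm. Ndufa12 had 158, 160, 238, 141 and 231 CPM in EDL and 74.9, 57.3, 71.6, 110 and 102 CPM in psoas (log2 fold change -1.16 ± 0.23, SE, adjusted p = 0.006, edgeR). Ndufa6, with an NRF1-type promoter match, had 186, 186, 225, 219 and 247 CPM in EDL and 71.6, 65.5, 86.3, 107 and 157 CPM in psoas (log2 fold change -1.13 ± 0.26, SE, adjusted p = 0.00992). Neither gene overlapped between the muscles. Ndufv3, a small subunit near the flavin site, had 87.4, 96.0, 136, 87.5 and 136 CPM in EDL and 38.4, 38.1, 51.7, 70.0 and 67.3 CPM in psoas, also without overlap (log2 fold change -1.03 ± 0.22, SE, adjusted p = 0.0083). Of the 10 subunits past the limits of the study, it had the smallest change.

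In the proximal membrane arm, 9 of 9 accessory subunits fell and 2 passed the limits of the study, with a median log2 fold change of -1.001. Ndufa8 is a subunit on the intermembrane side of the arm. Its level was 95.6, 119, 147, 100 and 170 CPM in EDL and 34.6, 40.8, 50.9, 76.1 and 72.4 CPM in psoas (log2 fold change -1.20 ± 0.24, SE, adjusted p = 0.00593, edgeR). Ndufa13, also known as GRIM-19, is needed for a stable complex. It had 320, 351, 422, 387 and 575 CPM in EDL and 132, 142, 185, 230 and 243 CPM in psoas (log2 fold change -1.14 ± 0.23, SE, adjusted p = 0.00612). For both genes every psoas library was below every EDL library. Ndufa1, an X-linked subunit of the membrane arm, had 93.1, 84.3, 104, 97.1 and 133 CPM in EDL and 37.8, 30.2, 55.7, 57.3 and 75.8 CPM in psoas (log2 fold change -0.99 ± 0.23, SE, adjusted p = 0.0109).

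In the distal membrane arm, 9 of 10 subunits fell and 2 passed the limits of the study, with a median log2 fold change of -0.95. Ndufb5 had the largest change of the 36 subunits. Its level was 254, 263, 264, 190 and 338 CPM in EDL and 47.3, 79.4, 120, 135 and 159 CPM in psoas, without overlap (log2 fold change -1.28 ± 0.29, SE, adjusted p = 0.00966, edgeR). Ndufb10, a subunit with disulphide bonds on the intermembrane side, had 139, 143, 164, 127 and 234 CPM in EDL and 51.2, 66.4, 67.9, 101 and 86.2 CPM in psoas (log2 fold change -1.11 ± 0.22, SE, adjusted p = 0.00523). Its groups did not overlap either. Ndufb9, the highest per length, had 344, 388, 537, 352 and 611 CPM in EDL and 113, 140, 190, 258 and 281 CPM in psoas (log2 fold change -1.18 ± 0.28, SE, adjusted p = 0.0125). Ndufb2 had 17.9, 13.2, 11.1, 20.8 and 27.2 CPM in EDL and 6.31, 5.62, 8.48, 13.6 and 21.9 CPM in psoas. It overlapped between the muscles, and its 95% confidence interval ran from -1.54 to 0.15 on the log2 scale.

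Ndufab1, the mitochondrial acyl carrier protein, sits at a site in each arm and also serves fatty acid and iron-sulphur cluster synthesis. It had the smallest change of the 36 subunits. The level was 61.1, 83.9, 95.6, 59.8 and 62.6 CPM in EDL and 30.2, 40.4, 40.2, 55.5 and 60.4 CPM in psoas. Psoas replicate 5 lay above EDL replicate 4, and the log2 fold change was -0.68 ± 0.21 (SE, adjusted p = 0.0371, edgeR). With 1 library left out in turn, the adjusted p passed 0.05 in 7 of 13 fits.

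Of the 8 assembly factors, 3 fell at an adjusted p under 0.05, 0 passed the limits of the study and 0 rose (edgeR), against 9.06% of all genes lower and 2.5% past the limits of the study, with a median log2 fold change of -0.79. Without EDL replicate 3 or psoas replicate 2, 1 was called. At an unadjusted p under 0.05 there were 7, where 33.3% of all genes were, and DESeq2 put 3 past the limits of the study. With the replicate number as a block, 5 fell at an adjusted p under 0.05 and 3 passed the limits of the study. How many of all genes were called with that block is not given here. Ndufaf4, a partner of Ndufaf3 in early assembly of the quinone module, had 38.6, 46.8, 47.6, 32.3 and 36.4 CPM in EDL and 12.3, 18.2, 22.4, 20.9 and 27.5 CPM in psoas, without overlap. The log2 fold change was -0.995 ± 0.20 (SE, adjusted p = 0.00628, edgeR), just short of the 2-fold limit. Ndufaf5, which hydroxylates an arginine of Ndufs7, had 14.4, 16.7, 26.7, 20.4 and 23.4 CPM in EDL and 4.07, 7.30, 7.51, 12.5 and 14.4 CPM in psoas. The groups did not overlap, but the lowest EDL library and the highest psoas library were at nearly the same level, and the log2 fold change was -1.15 ± 0.31 (SE, adjusted p = 0.0209).

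Ndufaf6, an assembly factor needed for the membrane arm, was the third to fall. It had 4.62, 9.23, 9.45, 8.04 and 9.34 CPM in EDL and 1.56, 2.84, 3.83, 4.74 and 5.67 CPM in psoas (log2 fold change -1.13 ± 0.33, SE, adjusted p = 0.0281, edgeR). EDL replicate 1 lay among the psoas libraries. The other 5 assembly factors had log2 fold changes between -0.90 for Ndufaf8 and -0.41 for Ndufaf7, with adjusted p-values between 0.0766 and 0.202. All 8 estimates were below 0, but under scaling by the total count those of Ndufaf2 (0.022), Ndufaf3 (0.0032) and Ndufaf7 (0.086) were above 0. At that scaling 1 of 8, Ndufaf4, was called lower, where 516 of all 17069 genes were. The difference between subunits and assembly factors was not tested.

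Some counts may hold reads of other genes, since the strand and overlap settings of the counting were not given in the sources used here. Of the 36 subunits, 14 overlap a protein-coding gene in GENCODE, among them Ndufb5 (Mrpl47), Ndufa13 (Tssk6) and Ndufs6 (Mrpl36), and 7 share over 10% of their 75-base transcript stretches with another annotated gene. Of the 19 subunits with neither, 18 fell at an adjusted p under 0.05 and 6 passed the limits of the study, with a median log2 fold change of -1.03. Every 75-base stretch of the pseudogene Ndufb4c (log2 fold change -1.05, adjusted p = 0.028, edgeR) is also found in Ndufb4, so their reads cannot be told apart by sequence. Ndufa4, a subunit of cytochrome c oxidase, had 360, 392, 585, 440 and 562 CPM in EDL and 77.9, 138, 188, 242 and 337 CPM in psoas, without overlap (log2 fold change -1.25 ± 0.34, SE, adjusted p = 0.0223). Ndufa4l2 had under 1 CPM on average in each muscle and was not called (adjusted p = 0.605).

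Within same-numbered pairs nearly all members were lower in psoas, by differing amounts. The median log2 difference of the 36 subunits, psoas minus EDL, was -1.47, -1.34, -1.20, -0.46 and -0.92 in pairs 1 to 5. In each of pairs 1, 2, 3 and 5 all 36 subunits were lower in psoas, and in pair 4 there were 35, the exception being Ndufa10. The share of all genes lower in each pair was not counted. The assembly factors had medians of -1.33, -0.83, -0.70, -0.50 and -0.73, and all 8 were lower in each pair except pair 4, where Ndufaf1 was not. Within codes, the subunit median was -1.34 in T4 and -1.20 in T5, with 1 library of each muscle, and -0.70 in T6, with 2 of each. Psoas was lower in all 36 subunits in each of the 3 codes, and the difference between codes was not tested.

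In the comparison of soleus with EDL, no member was called. Of 36 subunits, 0 passed an adjusted p under 0.05 (edgeR), where 3.43% of all genes did, and 0 passed the limits of the study, where 0.978% did. At an unadjusted p under 0.05 there were 12 of 36 subunits and 0 of 8 assembly factors, where 15.1% of all genes were, and DESeq2 called 1 subunit. All 36 subunits had a lower estimate in soleus, but 27 of 36 under total count scaling, with a median log2 fold change of -0.53 beside -0.03 over all genes. In 10 of 36, every soleus library lay below every EDL library, as in 5.5% of all genes. By role, the median was -0.65 for the core subunits, -0.62 for the matrix arm, -0.41 for the proximal and -0.48 for the distal membrane arm, and -0.16 for the assembly factors. Under total count scaling the median of all genes was 0.33 and that of the subunits -0.15, a difference of -0.49, and the calls over all genes moved from 284 lower and 301 higher to 209 lower and 1026 higher.

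Ndufa12 had the smallest p of the subunits in this comparison. Its level in soleus was 91.5, 86.0 and 136 CPM, all below the lowest EDL library, and the log2 fold change was -0.83 ± 0.28 (SE, 95% confidence interval -1.42 to -0.24, adjusted p = 0.131, edgeR). Ndufs7 had 94.0, 82.9 and 88.2 CPM in soleus, also below EDL (log2 fold change -0.81 ± 0.30, SE, adjusted p = 0.194). Ndufa8 had 69.6, 73.9 and 78.9 CPM (-0.77 ± 0.28, SE, adjusted p = 0.186). These intervals lie below 0 while the adjusted values miss the limit. Ndufb9 had 242, 208 and 362 CPM in soleus, which overlapped with EDL (-0.72 ± 0.33, SE, adjusted p = 0.319). Ndufb3 had 94.4, 87.2 and 131 CPM in soleus, among the EDL values of 93.6, 83.8, 108, 86.5 and 161, with an interval from -0.70 to 0.63 on the log2 scale. Ndufaf6 had 4.22, 3.69 and 6.46 CPM in soleus (-0.77 ± 0.38, SE, adjusted p = 0.37). Ndufa4 had 259, 231 and 465.8 CPM (-0.56 ± 0.40, SE, adjusted p = 0.569), and Ndufab1 57.8, 58.9 and 59.9 (-0.30 ± 0.24, SE, adjusted p = 0.63).

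**Figure D4:**
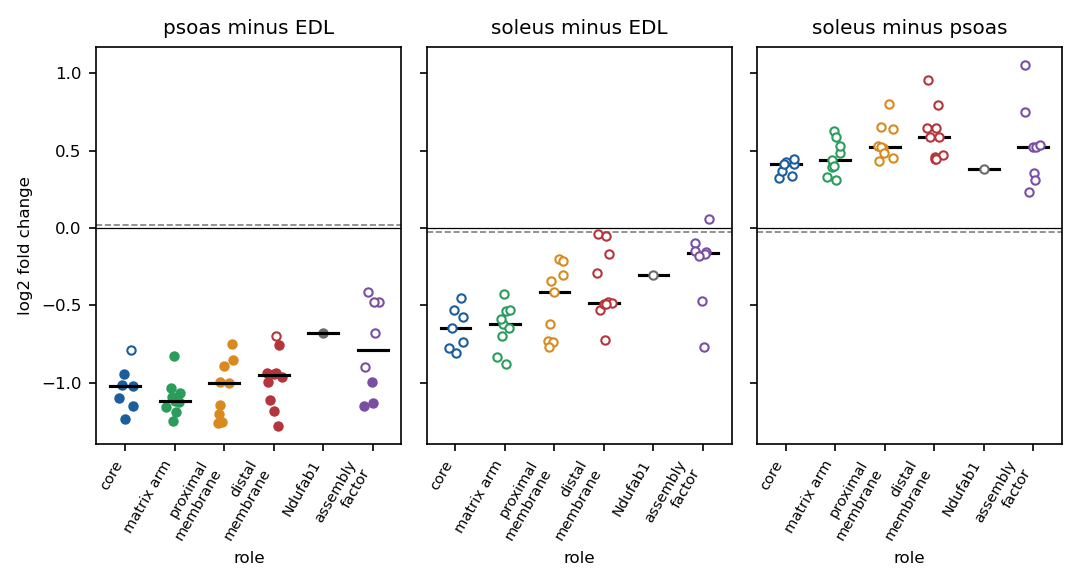
Log2 fold changes of the 36 subunits and 8 assembly factors by role in the 3 comparisons, with filled points for an adjusted p under 0.05, open points for genes not called, black bars for role medians and a dashed line for the median of all genes. Filled points appear only in psoas minus EDL; soleus minus EDL lies between -0.88 and 0.06, and soleus minus psoas between 0.23 and 1.05.

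In the comparison of soleus with psoas, all 36 subunits and all 8 assembly factors had a higher estimate in soleus, and none was called without a block. At an adjusted p under 0.05 there were 0 subunits and 0 assembly factors (edgeR), where 0.633% of all genes passed, and 0.0762% passed the limits of the study. At an unadjusted p under 0.05 there were 7 of 36 subunits and 3 of 8 assembly factors, where 12.7% of all genes were, and DESeq2 called 0 of either. With the label code as a block, Ndufb3 (adjusted p = 0.0472, edgeR) and Ndufaf5 (adjusted p = 0.0433) were called higher in soleus. With the replicate number as a block, Ndufb3 (adjusted p = 0.026, edgeR), Ndufa1 (adjusted p = 0.0478), Ndufaf5 (adjusted p = 0.031) and Ndufaf8 (adjusted p = 0.026) were called higher, although soleus numbers were not taken as pairs. The shares above are from the fit without a block, and those of all genes with either block are not given here. The median log2 fold change was 0.47 for the subunits and 0.52 for the assembly factors, beside -0.03 over all genes. No soleus library overlapped with psoas in 4 of 36 subunits, as in 5.24% of all genes, namely Ndufb3, Ndufb7, Ndufb10 and Ndufa11. Under total count scaling the median of all genes was -0.18 and that of the subunits 0.36. The 3 comparisons share their libraries, so their values are not independent.

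Ndufb3, a subunit of the distal membrane arm, had the smallest p of the subunits here. Its level was 33.6, 33.1, 56.2, 70.3 and 74.8 CPM in psoas and 94.4, 87.2 and 131 CPM in soleus (log2 fold change 0.96 ± 0.31, SE, 95% confidence interval 0.31 to 1.61, adjusted p = 0.206, edgeR). Ndufaf5 had 17.3, 13.8 and 26.0 CPM in soleus, the lowest of which lay among the psoas values (1.05 ± 0.35, SE, adjusted p = 0.222). Ndufa5 had 124, 89.6 and 116 CPM in soleus, all below EDL and overlapping with psoas (0.63 ± 0.24, SE, adjusted p = 0.293). Ndufa1 had 79.8, 75.5 and 87.2 CPM in soleus (0.65 ± 0.26, SE, adjusted p = 0.32). Ndufs7 had an estimate of 0.43 with an interval from -0.20 to 1.05, and Ndufab1 one of 0.38 with an interval from -0.13 to 0.89.

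The subunits varied together among libraries of the same muscle. After subtraction of the muscle means of log2 CPM, the median Pearson r over 630 pairs of subunits was 0.83 across the 13 libraries. The r of each subunit with the mean of the other 35 had a median of 0.92 and a lowest value of 0.71, for Ndufab1, and 25 of 36 subunits reached 0.9, as 1.24% of 17022 other genes did. For the assembly factors the r with the subunit mean ran from 0.19 for Ndufaf2 to 0.96 for Ndufaf1. These libraries share scaling, depth and label codes, and the values are descriptions.

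Over the 13 libraries, with muscle differences left in, the 10 genes outside the members whose log2 CPM was most like the subunit mean had Pearson r values from 0.98 to 0.99. They were Cox7a2 of complex IV, Sdhb of complex II, Uqcr10 of complex III, Atp5c1 and Atp5j2 of the ATP synthase, the mitochondrial ribosomal protein genes Mrpl18, Mrpl15 and Mrpl2, Coq9 of ubiquinone synthesis, and Nme6. They were ranked from these same libraries.

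Other genes of the pathway were counted in psoas against EDL, where 9.06% of all genes were called lower. Of 11 complex I assembly factors with other names, 3 fell at an adjusted p under 0.05 and 0 rose, with a median log2 fold change of -0.49. The 3 were Ecsit (-1.09, adjusted p = 0.009), Tmem126a (-1.10, adjusted p = 0.012) and Tmem126b (-0.72, adjusted p = 0.033), each part of the assembly of the membrane arm (edgeR). Of the 7 subunits encoded by mitochondrial DNA, 0 were called (edgeR), 2 had an unadjusted p under 0.05, and the median was -0.73. Among these, mt-Nd1 averaged 3248 ± 1261 CPM in EDL against 1670 ± 601 in psoas (SD, 5 libraries of each, adjusted p = 0.070, edgeR), and mt-Nd5 had 846 ± 350 against 831 ± 171 (SD, 5 libraries of each, adjusted p = 0.970, edgeR). The spread of these genes within EDL was wide.

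The subunits of complexes III and V are read against the same 9.06% of all genes. Of 9 complex III subunits, 5 fell with a median of -0.85, and of 17 complex V subunits, 14 fell with a median of -1.04, while 0 rose in either. Under total count scaling 1 and 3 of these were called lower, where 516 of all 17069 genes were. At that scaling 16 of 17 complex V estimates stayed below 0. Of 12 genes of mitochondrial import and carriers, 6 fell and 0 rose, with a median of -0.64, led by Slc25a4, the muscle ADP/ATP carrier (-1.57, adjusted p = 0.006, edgeR). Cs, the citrate synthase gene, stood at -0.27 (adjusted p = 0.461) and Tomm40, the import channel, at 0.28 (adjusted p = 0.307). Of 12 regulators of mitochondrial biogenesis, 1 fell and 1 rose, near the share of all genes (9.06% in each direction), with a median of -0.18. Under total count scaling 10 of 12 estimates were above 0, beside a median of 0.54 over all genes. At that scaling 4 of 12 were called higher, near the share of all genes (5134 of 17069). Perm1, a muscle partner of PGC-1 and ERR, averaged 53.5 ± 25.6 CPM in EDL against 11.8 ± 7.42 in psoas (SD, 5 libraries of each, log2 fold change -2.19, adjusted p = 0.005, edgeR), and Ppargc1b rose from 1.343 ± 0.50 to 3.16 ± 0.93 CPM (SD, 5 libraries of each, log2 fold change 1.21, adjusted p = 0.029, edgeR). Of the factors for which promoter letters were searched, those in these lists were not called. Nrf1 stood at -0.18 (adjusted p = 0.406, edgeR), Gabpa at 0.06 (adjusted p = 0.825), Esrra at -0.40 (adjusted p = 0.298) and Yy1 at 0.21 (adjusted p = 0.423). Esrrb (adjusted p = 0.895, edgeR), Esrrg (adjusted p = 0.860) and Gabpb1 (adjusted p = 0.258) were not called either. In soleus against either other muscle, 0 genes of these 6 lists were called at an adjusted p under 0.05 (edgeR), with 8 of 68 at an unadjusted p under 0.05 against EDL and 12 of 68 against psoas, where 15.1% and 12.7% of all genes were.

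**Figure D5:**
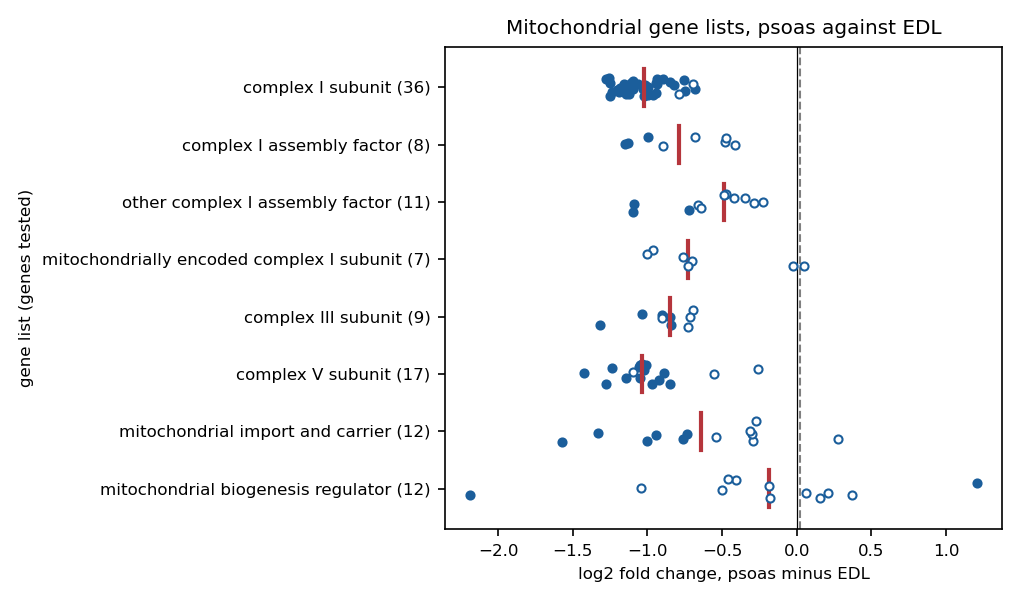
Log2 fold change of psoas minus EDL for each gene of 8 mitochondrial lists, with filled points for an adjusted p under 0.05, red bars for list medians and a dashed line for the median of all genes. The medians of complexes I and V, -1.03 and -1.04, lie farthest from 0, and that of the biogenesis regulators, -0.18, lies nearest.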

How the data were processed

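RNA-seq libraries of total RNA from whole mdm EDL, psoas and soleus muscles were prepared with a stranded kit and sequenced as paired ends. The authors trimmed libraries of low base quality with Trimmomatic 0.32, aligned the reads to GRCm38.p4 with TopHat2 2.1.1, and deposited raw read counts per gene, made with GenomicAlignments. Strand and overlap settings were not given in the sources used here. The authors also deposited a normalized signal, each count divided by a DESeq2 size factor of the library (0.502 to 2.42). Genes with a deposited signal of at least 10 in 3 or more libraries were tested (17069).

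Counts of all 13 libraries were fitted together with edgeR 4.0.16 (R 4.3.3), with TMM normalization, muscle as the factor, and Benjamini-Hochberg adjustment over all genes tested. The study also modelled the sequencing run, which the labels do not name. Calls used an adjusted p under 0.01 with an absolute log2 fold change over 1, as in the study, or an adjusted p under 0.05 alone. Each standard error was taken as log2 fold change over root F. CPM values are TMM-scaled, log2 CPM used a prior count of 2, and RPKM used the exon length of GENCODE mouse release 21. On counts simulated for psoas against EDL over 17069 genes, 94% of 50 genes changed 2-fold and 16% of 50 changed 1.5-fold were recovered. The simulated counts had the same dispersion (0.05) for every gene and no differences between libraries of a muscle other than depth. These shares are therefore not the recovery in the real libraries. Alternatives were DESeq2 1.42.0, limma 3.58.1 on log2 of signal plus 1, other scaling and filters, blocks for replicate number or label code, and libraries left out. Tables were made with Python 3.11.15, pandas 2.3.3 and scipy 1.17.1.

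Deviations from the muscle means of same-numbered EDL and psoas libraries correlated over genes at 0.289 to 0.407. As all were over 0.1, these numbers were taken to pair the libraries. Libraries of different numbers were not compared, so these values do not show that same-numbered libraries are more alike than others. Nothing in the labels says that pairs share an animal, and the ages in pair 1 differ. Soleus numbers gave -0.302 to 0.421 and were not taken as pairs. No 2 libraries of a muscle were duplicates (smallest chi-square per degree of freedom 57.0). The study calls the libraries of a muscle biological replicates, and its muscles, wild-type included, came from fewer mice than muscles. The labels do not name the animal of each library, so p-values measure the spread between these samples.

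Members are the genes fitting the symbol rule. Values in every library are given for members past the limits of the study, for the smallest p of each role in each comparison, and for the subunits highest and lowest per length. Ndufs1 and the pathway genes with values were named after their values were seen. The values of 1 subunit are not reported here by name, though it stays in the counts. Members, lists and tests were chosen with earlier results of these data known.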

Additional observations from a re-analysis of the deposited data

Results flagged for a closer look

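Of 42 groups of 5 libraries examined for a library far from the others (19 named genes and both summed levels, in EDL and in psoas), 1 stood out, and chance gives about 1 in 20. Ndufs7 in EDL replicate 5 reached 245.6 CPM, while the next EDL library had 148 and the lowest 113. The gap was 0.734 of the range, where the limit for 5 libraries is 0.71. Leaving EDL replicate 5 out gave Ndufs7 a psoas against EDL change of -1.01 on the log2 scale (adjusted p = 0.0172, edgeR).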

How the results depend on the processing

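For psoas against EDL, the subunits called at an adjusted p under 0.05 (34) became 10 under total count scaling, and 15 to 35 when 1 library was left out. Those past the limits of the study (10) became 0 under total count scaling and 0 without the T6 libraries (chosen after seeing the data), 1 without EDL and psoas replicate 1, 2 with only the 2 muscles compared, 18 with the label code block, 22 with DESeq2 and 23 with the replicate block, and 1 to 15 when 1 library was left out. The count was 1 without EDL replicate 3 or 5 or psoas replicate 1, 2 or 3, 4 without soleus replicate 1 and 5 without EDL replicate 2. Assembly factors called (3) became 1 under total count scaling and 5 with DESeq2, the label code block or the replicate block, with 1 to 4 when 1 library was left out. Those past the limits of the study (0) became 1 with DESeq2 size factors or limma, 2 with the label code block, and 3 with DESeq2 or the replicate block, with 0 to 1 when 1 library was left out. For soleus against EDL, DESeq2 called 1 subunit. For soleus against psoas, the label code block called 1 subunit and 1 assembly factor, and the replicate block 2 and 2, although soleus numbers were not taken as pairs. The cause was not tested. Shares of all genes called with the blocks are not given here. With 1 library left out, soleus gave 0 calls in either list and comparison, and the subunit medians ran from -1.18 to -0.87 for psoas against EDL, -0.69 to -0.43 for soleus against EDL and 0.32 to 0.65 for soleus against psoas.

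Among single genes, estimates of soleus against EDL near 0 changed sign without being called: Ndufa1 (0.022), Ndufab1 (0.093), Ndufaf5 (0.28), Ndufb2 (0.29) and Ndufb3 (0.33) under total count scaling, Ndufaf5 (0.16), Ndufb2 (0.29) and Ndufb3 (0.21) with the replicate block, Ndufb2 (0.14) and Ndufb3 (0.16) with the label code block, and, with 1 library left out, Ndufaf5 (-0.38 to 0.10), Ndufb2 (-0.62 to 0.23) and Ndufb3 (-0.23 to 0.16). Depth was not limiting for subunits, with at least 94 counts in every library. In simulated psoas against EDL, changes of 1.5-fold were mostly not recovered. The soleus comparisons were not simulated, and a gene not called is not shown to be equal.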
